A study of Mus musculus with 4 samples.

Results

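Mouse miRNAs numbered 690 to 721 were followed in cortical neurons maturing in culture. Every array probe was taken whose name gives a mouse miRNA with a number from 690 to 721, apart from the conserved miR-708 and names that end in an asterisk (the minor strand of a hairpin). This gave 30 probes of the 1030 that name a mouse miRNA. The rule reads names only. The neurons were primary cultures from the cortices of untreated E15 Swiss Albino mouse embryos, harvested after 2, 4, 6 or 8 days of culture (Day 2 to Day 8). There was 1 array per day, and per the methods each array was hybridised with RNA pooled from separate experiments, so that no spread between cultures can be given. The RNA carried 1 dye, Hy3, and was captured by locked nucleic acid probes, and each miRNA of the group had 4 replicate spots per array.

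A miRNA is a short RNA cut from a hairpin precursor, and it guides the silencing complex to messenger RNAs through its seed, bases 2 to 8 of the mature strand. The numbers from 690 to 721 were given to sequences that were mostly cloned from mouse embryo RNA and that are largely restricted to rodents. They are therefore neighbours in a registry and not a family by sequence. Several have a known origin outside a classical hairpin. In mice miR-712 is cut from an internal spacer of the ribosomal RNA precursor, miR-720 is a fragment of a transfer RNA that the registry later withdrew, and miR-702 comes from an intron that folds into the hairpin. Roles have been described in mice for some members. Extracellular miR-711 evokes itch through the ion channel TRPA1, miR-709 acts in the nucleus on the primary transcript of miR-15a and miR-16-1, and miR-721 belongs with miR-130 and miR-301 in the reprogramming of fibroblasts.

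RefSeq (GRCm38.p6) held a mature sequence under the exact array name for 19 of the 30 miRNAs, 10 of them detected on the arrays. The sequences of the 3 miRNAs that rose with day, and of miR-705 and miR-713, are given here 5′ to 3′ with the seed in capitals, since the main results turn on them.
miR-711: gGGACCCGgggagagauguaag
miR-710: cCAAGUCUuggggagaguugag
miR-706: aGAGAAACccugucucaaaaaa
miR-705: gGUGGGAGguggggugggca
miR-713: uGCACUGAaggcacacagc
They lie at chr9:108969970-108969991 on the plus strand (miR-711), chr8:64514401-64514422 on the minus strand (miR-710), chr6:120034290-120034311 on the minus strand (miR-706), chr6:85336341-85336360 on the minus strand (miR-705) and chr13:62760807-62760825 on the plus strand (miR-713). The mature sequences read for the group were 19 to 23 bases long. No seed was shared by any pair of the 19 miRNAs.

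The hairpins were scattered through the genome and lay mostly inside genes. Of 29 hairpin genes, 23 had a position in the RefSeq gene table, and these were on 13 chromosomes. The span of a protein-coding gene overlapped 21 of the 23, on the same strand in 17, on the opposite strand in 1 and with a strand not known here in 3. The table gives gene spans, so that exons and introns were not told apart. Mir711 lay within Col7a1, which encodes type VII collagen, Mir706 within the kinase gene Wnk1, and Mir705 within Rab11fip5, a gene of endosome recycling. Mir691 lay within Robo2, a receptor for axon guidance, Mir690 within the fibroblast growth factor gene Fgf12, Mir721 within the homeobox gene Cux1, and Mir693 within Xpo5, whose protein exports miRNA precursors from the nucleus. Mir710 overlapped no gene of the table. Of the 23, 1 hairpin gene (Mir718) had another miRNA gene within 10 kb.

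The brightness of the arrays and the neuronal identity of the cultures, by marker miRNAs, were checked first. The mean signal of all mouse miRNA probes, as intensity after background subtraction, was 1524, 1653, 1275 and 1558 on Days 2, 4, 6 and 8, so that the array of Day 6 was the dimmest. The neuronal miR-124 and miR-9 were saturated on all 4 arrays. The summed signals of 3 astrocyte markers were 376, 430, 286 and 320. Most of this was miR-21 (372, 432, 251 and 288), at 300 or more on Days 2 and 4 only, with miR-143 and miR-145 near 0. Summed signals of 3 microglial and leukocyte markers were 674, 589, 338 and 384, and those of 3 red cell and endothelial markers 900.1, 729, 326 and 258. In both of these lists 1 marker was detected, miR-142-3p and miR-451, each at 300 or more on Days 2 and 4 only, while the myeloid miR-223 stayed near 0. The summed signal of the 2 oligodendrocyte markers was 1417, 1969, 1065 and 1583. The part of such cells in the values below was not tested. In bulk RNA, fewer cells of a type and less RNA per cell cannot be told apart.

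A miRNA was called detected where its mean signal over the 4 spots was at least 300 on 1 array or more, the threshold of the study's methods. By this rule 15 of the 30 miRNAs (50%) were detected, against 404 of the 1000 other mouse miRNA probes (40.4%) and 40.7% of all mouse probes. The arrays of Days 2, 4, 6 and 8 detected 13, 14, 12 and 13 of them, and 12 passed on every array. Among the 15, miR-690, miR-709 and miR-720 reached the limit of the scanner. The detected miRNAs with a sequence were purine-rich, with a median of 65.9% purines, against 42.9% in the 9 undetected miRNAs with a sequence. The median was 50% in those other detected mouse miRNAs that were matched to a sequence by exact name. Guanine made up a median of 30.3%, 23.8% and 27.3% of the bases in the same 3 sets. These shares are given as a description without a test.

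miR-711 showed the steepest increase of the group. Its signals were 1788, 3208, 3067 and 7138 on Days 2, 4, 6 and 8, and on each later day all 4 spots lay above all 4 spots of Day 2. Its log2 difference from Day 2 after quantile normalization of the 4 arrays, called the signal log ratio (SLR), was 0.69 ± 0.05, 1.15 ± 0.07 and 1.89 ± 0.06 on Days 4, 6 and 8. Here and below, ± beside an SLR combines the SDs over the 4 spots of either array (root of their summed squares), and covers technical error within arrays only. Whether spots overlapped those of Day 2 was likewise read after quantile normalization. That order can differ from the order of the signals, which are not normalized. Between neighbouring days miR-711 was higher by 0.69, 0.46 and 0.74 on the log2 scale. Its Day 8 SLR ranked 1 of the 410 detected mouse miRNAs that were not saturated, but with endogenous controls miR-882 was higher (2.35 against 2.23 for miR-711). Spike-in controls, median scaling and no normalization keep that order, since these scalings shift all miRNAs of an array alike. In a linear trend over day, fitted with limma to all 419 detected mouse miRNAs, it rose by 0.31 ± 0.02 (SE) per day on the log2 scale (adjusted p = 0.0061, Benjamini-Hochberg). The trend rests on 4 pools with 2 residual degrees of freedom, and limma also draws on the residual scatter of all 419 miRNAs. Its p-value therefore sets the slope against the scatter of pools around a line, not against a spread between cultures.

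miR-710 followed a like course. Its signals were 2010.1, 3634, 3009 and 5984, with the spots of each later day all above those of Day 2. Its SLR reached 0.70 ± 0.07, 0.95 ± 0.06 and 1.36 ± 0.04 on Days 4, 6 and 8, and ranked 8 of 410 on the last. It rose by 0.22 ± 0.03 (SE) per day (limma, adjusted p = 0.013). On Day 4 it stood as high as miR-711, and the later steps of 0.26 and 0.40 were smaller than those of miR-711. That difference between the courses was not tested.

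miR-706 rose later. Its signals were 2139, 2496, 2216 and 4676. Before normalization the spots of Day 4 (2411 to 2562) lay all above those of Day 2 (2069 to 2230), and those of Day 6 overlapped them. After normalization the SLR of miR-706 was 0.10 ± 0.08 on Day 4, where the spots overlapped those of Day 2. It was 0.41 ± 0.06 on Day 6 and 0.88 ± 0.06 on Day 8, where all spots lay above. It ranked 23 of 410 on Day 8, and the slope was 0.15 ± 0.03 (SE) per day (limma, adjusted p = 0.034). The call is the least firm of the 3, since it was lost without the array of Day 4 (adjusted p = 0.084), Day 6 (0.098) or Day 8 (0.22). Without Day 8 those of miR-710 and miR-711 were lost as well (0.14 and 0.12), and without Day 6 that of miR-710 (0.063). With spike-in controls the adjusted p was 0.37 for miR-706 and 0.092 for miR-710, and without normalization it was 0.31 and 0.088.

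**Figure D1:**
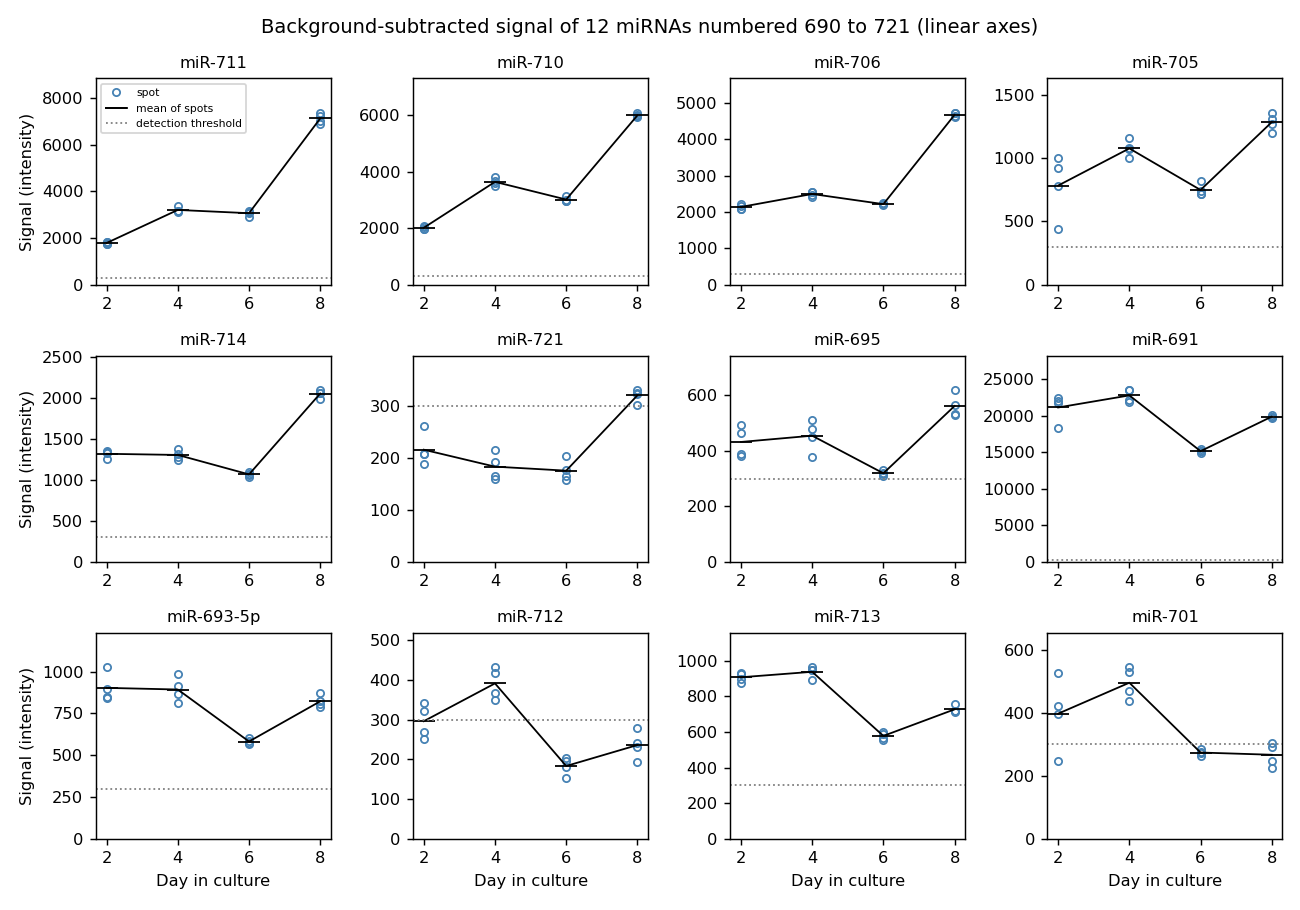
Background-subtracted signal of the Hy3 channel (intensity, linear axes that start at 0) by day in culture for the 12 detected miRNAs that were not saturated. Circles are the 4 spots of an array, dashes joined by lines are their means, and the dotted line is the detection threshold of 300. The signals are not normalized, whereas overlaps of spots in the text are read after normalization. miR-711 reached 7138 on Day 8, against 1788 on Day 2, while miR-713 gave 726 and 906 on the same days.

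Counted over the group, differences past the SLR threshold of 0.6 were all increases. Of the 12 miRNAs with an SLR, 2 were higher by more than 0.6 on Day 4 (miR-710 and miR-711), against 7.32% of all 410 mouse miRNAs, and 2 on Day 6 (the same pair), against 10%. On Day 8 there were 3 (miR-706, miR-710 and miR-711), against 11%. None was lower by more than 0.6 on Days 4, 6 or 8, where the share over all mouse miRNAs was 1.95%, 4.63% and 11.5%. The share of all mouse miRNAs depends on the scaling. On Day 8, 45 were higher and 47 lower under quantile normalization, against 85 and 24 when scaled by endogenous controls and 28 and 81 without normalization. The median SLR of the 12 was 0.06, 0.04 and 0.25 on Days 4, 6 and 8, against -0.01, -0.01 and -0.03 for all mouse miRNAs. Above 0 on Day 8 were 8 of the 12, against 189 of the 410. Without normalization miR-691, miR-695 and miR-721 also lay below 0.

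By the limma trend 3 of the 15 detected miRNAs rose, against 3.58% of all detected mouse miRNAs, and 0 fell, against 9.55%. At an unadjusted p under 0.05 (limma trend), 4 of the 12 unsaturated miRNAs rose (miR-705 with the 3 named above) and 2 fell (miR-701 and miR-713). The share over all mouse miRNAs at this threshold is not given here, so these counts show nothing particular to the group. Replicate spots that did not overlap with those of Day 2 gave a finer view. On Day 8 the spots of 6 of the 12 lay all above those of Day 2 (31.5% of all mouse miRNAs) and those of 2 all below (36.1%). On Day 4 this was so for 2 above (19%) and 3 below (23.4%), and on Day 6 for 4 above (21%) and 2 below (23.9%). With so few miRNAs, counts as close to these shares as those of Day 4 show nothing particular to the group.

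**Figure D2:**
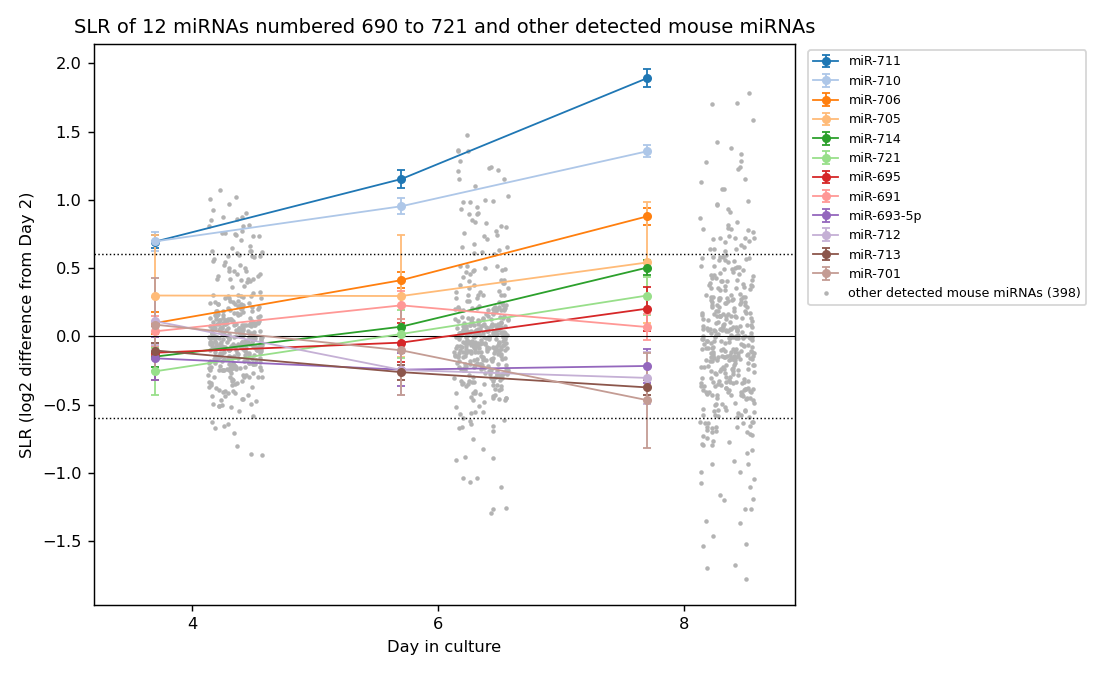
SLR (log2 difference from Day 2) by day in culture, with coloured lines for the 12 miRNAs numbered 690 to 721, bars for the combined spot SD, and grey points for the other detected mouse miRNAs. Dotted lines mark 0.6 and -0.6. miR-711, miR-710 and miR-706 lay above 0.6 on Day 8, and the lowest of the group, miR-701, was at -0.47.

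The pair that rose earliest shared a stretch of sequence. Both miR-711 and miR-710 hold GGAGAG, a 6-base motif noticed after the values had been seen and read in the mature RNA only. It stands in 36 of 1679 mature mouse sequences in RefSeq (2.14%). Of 273 mouse probes matched to a sequence by exact name, 5 hold it, and all 5 were detected. In the rest of the 1030 mouse probes, whose names had no exact match, the motif was not read. The 5 are printed here with the motif in capitals.
miR-711: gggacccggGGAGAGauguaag
miR-710: ccaagucuuggGGAGAGuugag
miR-882: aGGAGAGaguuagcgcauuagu
miR-1894-3p: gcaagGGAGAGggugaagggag
miR-3095-3p: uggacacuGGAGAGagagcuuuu
The motif lies at a different place in each, within the seed of miR-882 and towards the middle or 3′ end of miR-710 and miR-711.

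All 5 miRNAs with the motif were above 0.6 on Day 8. miR-711 and miR-710 had Day 8 SLRs of 1.89 and 1.36, miR-882 had 1.78, miR-1894-3p had 0.84 ± 0.08 and miR-3095-3p had 0.72 ± 0.13. Among the 97 matched, detected and unsaturated mouse miRNAs without it, 8 were above 0.6 on Day 8 (8.25%) and 6 below -0.6, with a median of 0.04 and a range of -1.05 to 1.58. By the limma trend miR-882 (adjusted p = 0.0061) and miR-3095-3p (0.043) rose, and miR-1894-3p had an adjusted p of 0.055. Under the alternatives miR-3095-3p fell below 0.6 on Day 8, with its lowest value, 0.55, without background correction. The others with the motif stayed above 0.6 under every alternative. Because the motif was picked from miRNAs that rose, the counts carry no test. They cover only the 102 of the 410 detected, unsaturated mouse miRNAs that were matched by exact name, and do not describe the whole array.

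**Figure D3:**
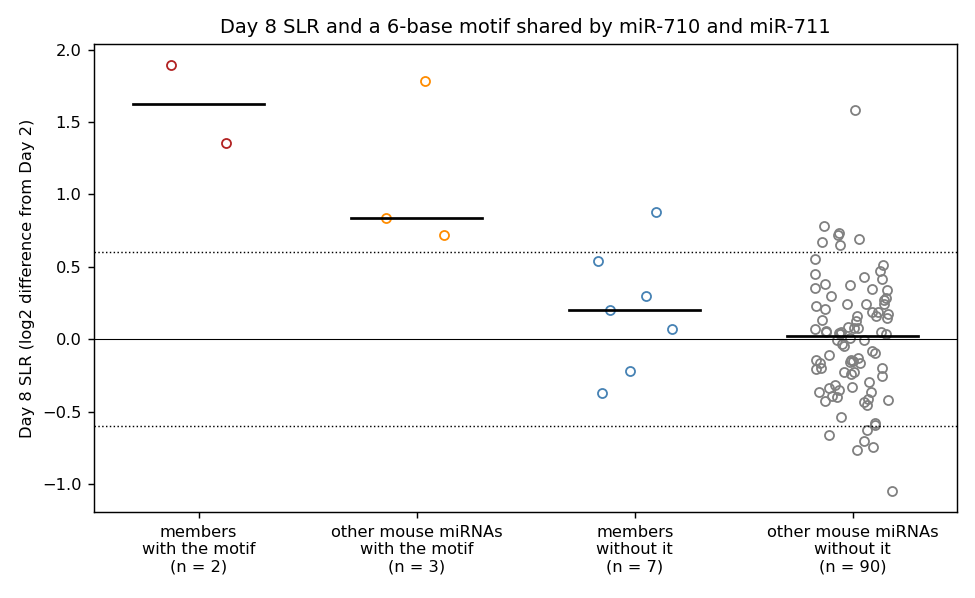
Day 8 SLR (log2 difference from Day 2) of 102 detected, unsaturated mouse miRNAs with a RefSeq sequence under the exact array name. They are split by the 6-base motif and by number (members are those numbered 690 to 721). Circles are miRNAs, thick bars are medians and dotted lines mark 0.6 and -0.6. All 5 with the motif lie above 0.6, as do 8 of the 97 without it.

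Base composition was set against the Day 8 SLR as a description. Across the 102 miRNAs Spearman's rho was 0.20 with the percent of guanine, 0.29 with the percent of purine and 0.12 with the percent of G and C. For the 9 matched miRNAs of the group rho was 0.53 with guanine and 0.51 with purine, against 0.14 and 0.20 for the 93 others. These correlations run across miRNAs that share the same 4 arrays, and miRNAs are not independent replicates. The guanine-richest of the group, miR-705 (70.0% guanine), is not among the 3 that rose.

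The miRNAs whose profile came nearest to that of miR-711, by Euclidean distance over the 3 SLRs among the other detected mouse miRNAs, were miR-882 (distance 0.24), miR-2137 (0.34) and miR-29a (0.34). miR-882 had signals of 7022, 13896, 13238 and 27523 on Days 2, 4, 6 and 8. miR-2137 had SLRs of 0.59, 1.24 and 1.58, and miR-29a 0.88, 1.37 and 1.70. Nearest to miR-701, the lowest of the group on Day 8, were miR-138-2* (0.036), let-7b (0.040) and miR-487b (0.097), at Day 8 SLRs of -0.45, -0.46 and -0.40. A small distance says that 4 arrays gave a like course and no more.

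miR-705 and miR-714 were higher on Day 8 by less than the threshold. In mice miR-705 has been studied in bone marrow mesenchymal stem cells. Its signals were 783, 1076, 748 and 1284 on Days 2, 4, 6 and 8. The spots of Day 2 were scattered between 438 and 998, which leaves the SLR of 0.54 ± 0.44 on Day 8 imprecise, although all spots of Day 8 lay above them. miR-714 had signals of 1318, 1304, 1066 and 2054. Its spots lay all below those of Day 2 on Day 4 (-0.15 ± 0.07) and all above on Day 8 (0.50 ± 0.06), with 0.07 ± 0.06 between. Neither trend passed the limma test (adjusted p = 0.078 for miR-705 and 0.15 for miR-714), but both did when scaled by endogenous controls (0.036 and 0.030), where their Day 8 SLRs were 0.83 and 0.85. Without the array of Day 2 the trend of miR-714 passed as well (0.00058).

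Of the miRNAs with an origin in ribosomal or transfer RNA named at the start, miR-720 was saturated and miR-712 was near the detection threshold. miR-714, which was listed with miR-712 as a ribosomal spacer product, was higher on Day 8 (SLR 0.50 ± 0.06, given above). The transfer RNA fragment miR-720 gave signals of 61144, 61868, 61779 and 61685, with 79.5% to 82.8% of pixels saturated, so that a change with day could not be read. The ribosomal spacer product miR-712 gave 296, 392, 184 and 236, and passed 300 on Day 4 alone. The bound for Day 4 was 1.04-fold higher, but the SLR was 0.11 ± 0.18 with spots that overlapped those of Day 2. Its SLR was -0.30 ± 0.19 on Day 8 with spots that overlapped those of Day 2, and the trend did not pass (adjusted p = 0.15). When scaled by the median it was at -0.69 on Day 8 and the trend passed (limma, adjusted p = 0.024), as it did without the array of Day 2 (0.038).

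miR-709 and miR-690 were also too bright to follow. miR-709 gave signals of 62274, 62169, 60202 and 62090 with 54.0% to 80.8% of pixels saturated. miR-690, which has been studied in exosomes of mouse macrophages, gave 61815, 61987, 52340 and 57199. Its saturated share was 68.2% and 74.8% on Days 2 and 4, against 3.75% and 17.5% on Days 6 and 8, so that the signals of Days 2 and 4 are lower limits. No fold is given for these miRNAs.

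miR-691 was bright without saturation, and its SLRs were small under quantile normalization. Its signals were 21150.0, 22805, 15159 and 19894, with an SLR of 0.04 ± 0.11, 0.23 ± 0.10 and 0.07 ± 0.10 on Days 4, 6 and 8. Only on Day 6, the array with the lowest signals, did all spots lie above those of Day 2 after normalization. Its Day 8 SLR was 0.33 with endogenous controls and -0.10 without normalization. miR-695 was near the threshold, with signals of 432, 454, 319 and 562 and an SLR of 0.20 ± 0.16 on Day 8, where spots overlapped those of Day 2. Without normalization it was at -0.13.

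After quantile normalization miR-713 lay below its Day 2 level on every later day, although its signal before normalization was higher on Day 4. Its signals were 906, 937, 577 and 726, and the SLR was -0.10 ± 0.06, -0.26 ± 0.06 and -0.37 ± 0.05, with spots all below those of Day 2 on each day. Its slope was -0.06 ± 0.02 (SE) per day (limma, adjusted p = 0.078). With endogenous controls its Day 8 SLR was -0.11 (limma trend, adjusted p = 0.59), and without normalization it was -0.54. miR-701 had the lowest Day 8 SLR of the group, with signals of 397, 496, 274 and 267, and was at least 1.26-fold lower on Day 8 than on Day 2. Its spots overlapped on each day, since those of Day 2 ran from 248 to 526, and the SLR of -0.47 ± 0.35 is correspondingly loose (limma, adjusted p = 0.12). Without normalization miR-701 was at -0.92 on Day 8, and its trend passed under median scaling (adjusted p = 0.030), without background correction (0.036) and without the array of Day 2 (0.0040).

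The hairpin of miR-693 is represented by both arms, of which one was detected. The sequences are given with the seed in capitals, at chr17:46231551-46231571 (5p arm) and chr17:46231581-46231603 (3p arm) on the plus strand.
miR-693-5p: cAGCCACAuccgaaaguuuuc
miR-693-3p: gCAGCUUUcagauguggcuguaa
The 5p arm gave signals of 903, 893, 582 and 822, and the 3p arm 20.5, 26.0, 28.0 and 37.1, at the level of undetected probes. Because probes differ in how well they bind, the gap does not measure the ratio of the arms. The SLR of miR-693-5p was -0.16 ± 0.16, -0.24 ± 0.12 and -0.22 ± 0.13, with spots all below those of Day 2 on Days 6 and 8 (limma trend, adjusted p = 0.24). When scaled by endogenous controls it was at 0.05 on Day 8.

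miR-721 carries the seed of the miR-130 and miR-301 family, which lies outside the numbered group. It shared that seed with 6 other mature mouse sequences in RefSeq, and miR-705 shared its own with 3. The 4 sequences below have the seed in capitals and differ after it.
miR-721: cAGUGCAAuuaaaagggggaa
miR-130a-3p: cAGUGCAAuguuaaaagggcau
miR-130b-3p: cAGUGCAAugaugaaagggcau
miR-301a-3p: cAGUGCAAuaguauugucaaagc
miR-721 lies at chr5:136375777-136375797 on the minus strand. Its signals of 215, 183, 175 and 320 on Days 2, 4, 6 and 8 passed 300 on Day 8 alone. The SLR was -0.26 ± 0.17 on Day 4 (spots all below those of Day 2), 0.02 ± 0.17 on Day 6 and 0.30 ± 0.14 on Day 8 (spots all above). No fold is given, because a bound from the detection threshold fell under 1. The sign on Day 8 depended on the scaling, being -0.14 under median scaling, -0.13 with spike-in controls and -0.28 without normalization. The limma trend did not pass (adjusted p = 0.29) except without the array of Day 2 (0.0038).

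Of the seed family, miR-130a, miR-130b and miR-301a, whose probe names carry no arm, lay below their Day 2 level on Day 8. This held under quantile normalization and all 13 alternatives. The probe of miR-301b, named for the same family, was detected as well, but its values are not given here. miR-130b had signals of 2078, 1424, 809 and 954 and an SLR of -1.10 ± 0.13 on Day 8, and it fell by the limma trend (adjusted p = 0.026). miR-301a had signals of 24794, 25789, 13732 and 14798 and an SLR of -0.53 ± 0.05 on Day 8 with spots all below those of Day 2 (adjusted p = 0.090). miR-130a had signals of 25165, 23343, 13396 and 17684, and its SLR of -0.43 ± 0.39 came with overlapping spots (adjusted p = 0.072). The difference between miR-721 and these miRNAs was not tested.

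**Figure D4:**
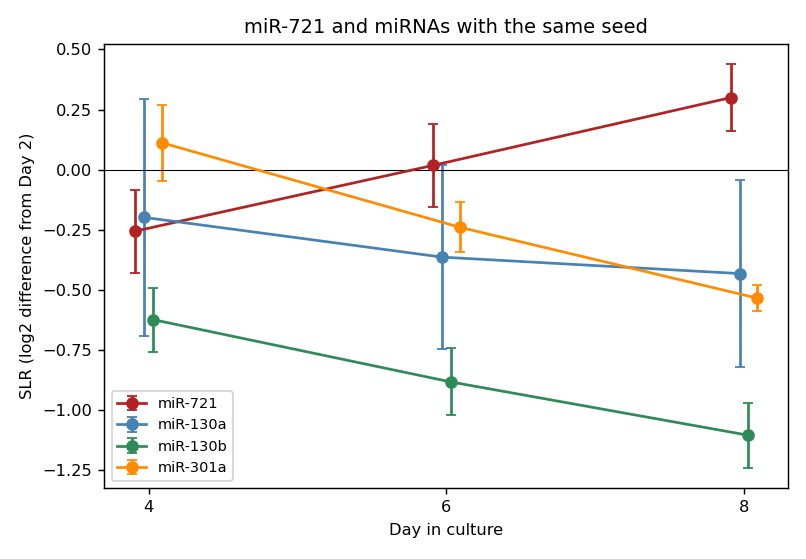
SLR (log2 difference from Day 2) by day in culture of miR-721 and of 3 miRNAs named for the same seed, with bars for the combined spot SD. On Day 8 miR-721 was at 0.30, miR-301a at -0.53, miR-130a at -0.43 and miR-130b at -1.10.

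The other 15 miRNAs stayed under 300 on every array. These were miR-692, miR-693-3p, miR-694, miR-696, miR-697, miR-698, miR-700, miR-702, miR-703, miR-704, miR-707, miR-715, miR-717, miR-718 and miR-719. Among them miR-696 is known in mouse muscle as a regulator of the coactivator PGC-1alpha. Their signals ran between -81.1 and 211, with medians of 41.7, 36.0, 65.0 and 37.1 on Days 2, 4, 6 and 8. The highest of 7 negative control probes was at 139, 123, 93.9 and 117 on these days, and 1, 4, 2 and 3 of the 15 exceeded it. The highest value, 211 for miR-694 on Day 8, came with an SD of 320 between spots. At these signals a change with day was not detectable. Probes for minor strands of 3 hairpins, left out of the group by their names, were under 300 as well. miR-701* gave 11.3, 16.8, 74.1 and 3.96, miR-712* 86.4, 98.8, 90.9 and 84.8, and miR-700* 176, 210.4, 117 and 228, while miR-700 itself gave 138, 123, 85.2 and 119.

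Probes that should find no target in these cells give a background for the values above. Of 202 probes that name viral miRNAs only, 43 were detected, and on Day 8 9 of them were higher than on Day 2 by more than 0.6 and 1 was lower, with a median SLR of 0.10 over the 43. The highest, ebv-miR-BART19-3p, had signals of 2786, 4429, 3767 and 7615 and a Day 8 SLR of 1.36 ± 0.09, the same SLR as miR-710. The part that RNA other than the named miRNA has in the signals of the 690 to 721 group was not tested.

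The increases of the 3 miRNAs were read again under 13 other ways of processing. Not all of these could test the values. The filters on dim probes left the Day 8 SLRs of the 3 exactly as they were. So did the removal of spots bright in the red channel, where no dye was used. miR-711 lay between 1.80 and 2.23 on Day 8, miR-710 between 1.34 and 1.83 and miR-706 between 0.88 and 1.40, above 0.6 throughout. Endogenous controls gave the highest value for each. They also brought miR-705 and miR-714 above 0.6, while spike-in controls, median scaling and no normalization each brought miR-701 and miR-712 below -0.6.

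**Figure D5:**
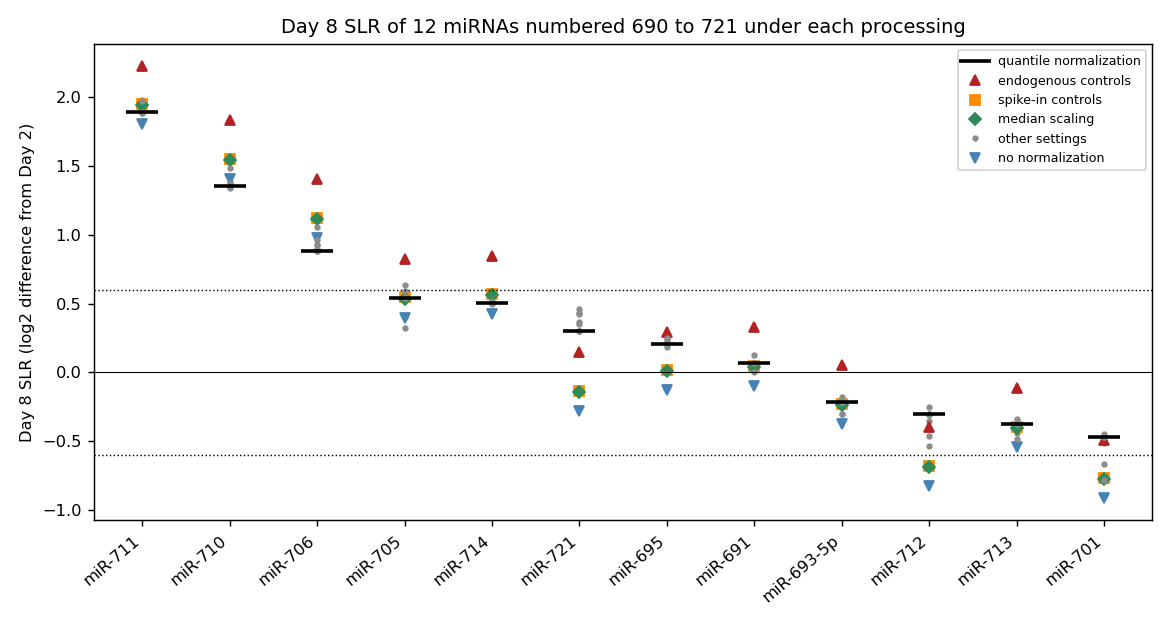
Day 8 SLR (log2 difference from Day 2) of the 12 miRNAs under quantile normalization (black bars) and under the alternatives (coloured symbols for the scalings, grey points for the rest), with dotted lines at 0.6 and -0.6. miR-711, miR-710 and miR-706 stay above 0.6 under every alternative, and miR-721 lies on both sides of 0.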

How the data were processed

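The deposited scanner files hold foreground and background intensity per spot (12312 spots per array), as quantified with Mapix 4.5.0 from an InnoScan 700 scan at 532 nm, not normalized between arrays, with the percent of saturated pixels per spot as deposited. An intensity at 635 nm, where no dye was used, was also recorded by the authors. The value table the authors deposited holds intensity on a linear scale, equal to the spot mean of median foreground minus background (largest difference 4.4e-06), so it is neither logged, centred nor normalized. By day, its columns had medians of 73.2, 82.4, 65.8 and 81.1.

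In R 4.3.3 with limma 3.58.1, normexp (offset 50, fitted on all spots) was applied to the mean foreground. Log2 values of miRNA spots were quantile-normalized, which sets aside changes common to all miRNAs, and spots of a probe were averaged. Probe names follow miRBase 16.0. Probes with at least 50% of pixels saturated on any array were given no fold. A probe under 300 on 1 of 2 arrays was given a bound, in which the value on the dimmer array was raised, where lower, to the lowest seen on that array for a probe whose spots were all at 300 or above. Trends were fitted with lmFit and eBayes over 419 detected mouse miRNAs, two-sided, with Benjamini-Hochberg adjustment at 0.05. The trend test was tested on simulated data. Single days could not be tested against Day 2, since each has 1 array, and precision is limited by the number of arrays. Between spots, the median SD of an SLR was 0.12, 0.12 and 0.11 on Days 4, 6 and 8.

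The miRNAs, marker lists and tests were chosen with earlier results of these data known. Every detected miRNA was named with its values, with the 3 nearest profiles of the highest and the lowest on Day 8. The alternatives changed the background correction, foreground, spot summary, scaling (15 endogenous controls, 33 spike-in controls, the median, cyclic loess, none), value table, filter on dim probes, spots bright at 635 nm, detection threshold and arrays in the trend. Sequences and positions were read from RefSeq tables (GRCm38.p6).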

Additional observations from a re-analysis of the deposited data

Results flagged for a closer look

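Light was recorded in the red channel, where no dye was used, on the spots of 5 of the miRNAs above the highest negative control of every array (5.93, 6.06, 8.58 and 5.92 on Days 2, 4, 6 and 8; the values below have the same order). These data stand outside the comparisons. miR-720 gave 284, 331, 247 and 335, miR-709 gave 187, 169, 145 and 165, and miR-690 gave 147, 145, 108 and 126, all 3 with saturated Hy3 spots. miR-691 gave 24.2, 35.2, 21.8 and 24.9. miR-711 gave 8.54, 17.4, 13 and 15. The median of the 30 miRNAs in the red channel was 5.19, 5.78, 5.33 and 5.23, against 4.66, 4.78, 4.71 and 4.70 for all mouse miRNA probes.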

How the results depend on the processing

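Of 153 Day 8 SLRs under alternatives, 113 moved by less than the spot SD and 40 by more. Of 201 refitted trends, 172 kept direction and call, 9 gained the call, 10 lost it and 10 changed sign. The median SLR of all mouse miRNAs on Days 4, 6 and 8 was 0.17, 0.13 and 0.17 with endogenous controls, -0.10, -0.65 and -0.26 without normalization, -0.36, -0.62 and -0.11 when scaled by spike-ins and -0.05, -0.09 and -0.12 when scaled by the median.

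With endogenous controls 5 miRNAs were above 0.6 on Day 8, against 85 of all 410 mouse miRNAs, and 5 rose by the trend. With spike-in controls 0, 1 and 3 were above 0.6 and 1, 6 and 2 below -0.6 on Days 4, 6 and 8. Over all 410 mouse miRNAs these counts were 5, 9 and 41 above and 69, 221 and 58 below. The medians of the group were -0.42, -0.62 and 0.032, and 1 rose. Under median scaling 1 and 2 were below -0.6 on Days 4 and 8, against 16 and 59 of the 410. The medians of the group were -0.11, -0.087 and 0.024, and 2 fell. Without normalization 1, 6 and 2 were below -0.6 on Days 4, 6 and 8, against 18, 238 and 81 of the 410. Above 0.6 on Day 6 was 1, against 8 of the 410. The medians of the group were -0.15, -0.65 and -0.11, and 1 rose. On Day 8, 1 was below -0.6 with a background floor of 50, without background correction (where 1 fell by the trend) and with the value table. Of the 410, 59, 55 and 67 were below -0.6 under these settings. With 300 required on all arrays the medians were 0.23 and 0.50 on Days 6 and 8, and with no filter 0.050 on Day 8. Between 11 and 17 of the 30 were detected under other thresholds and corrections.

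Leaving out 1 array, between 0 (without Day 8) and 5 (without Day 2) miRNAs rose, with 1 without Day 6, and between 0 and 2 fell. The slope of miR-691 was -0.0072 with spike-in controls, -0.0068 with cyclic loess and -0.044 without normalization. That of miR-693-5p was 0.0037 with endogenous controls. That of miR-695 was -0.044 without normalization and -0.0076 with spike-in controls, and ran between -0.011 (without Day 8) and 0.081 (without Day 2) when 1 array was left out. That of miR-721 was -0.015 with spike-in controls, -0.0051 under median scaling and -0.052 without normalization. None of these trends was called, and the cause of the changes was not tested. No paired analysis was possible because each day has 1 array. Saturation and signals near 300 limit which miRNAs can be followed.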
